A study of Mus musculus with 6 samples.

Results

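The set described here consists of 10 genes for receptors and ligands with which phagocytes bind apoptotic cells and modified lipoproteins: *Mertk*, *Axl*, *Gas6*, *Pros1*, *Cd36*, *Scarb1*, *Scarb2*, *Msr1*, *Cd33* and *Lrp1*. They were chosen by symbol, and all 10 were found among the 19225 genes listed in the deposited table. Microglia, enriched as CD11b+ cells with magnetic beads, were obtained from perfused brains of male mice that had not been exposed to stress, and 3′ mRNA sequencing was performed on 1 library per mouse. The 3 *Cnr1*+/+ mice (genotype wt/wt, strain C57BL6/J) and the 3 *Cnr1*-/- mice (genotype d/d, strain Cnr1 tm1Zim) were compared to ask whether the gene set differs in microglia of mice lacking cannabinoid receptor 1 (CB1). The labels give an age of 3 months for every mouse, while the study's methods give a lower age for its mice. The mutation is constitutive, with a neomycin cassette interrupting the coding sequence, so every cell of the animal carries it. The methods name the *Cnr1*+/+ mice as littermates.

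Removal of dying cells, or efferocytosis, is a core task of microglia in the healthy brain. Apoptotic cells expose phosphatidylserine, which the bridging proteins GAS6 and protein S link to the receptor tyrosine kinases TYRO3, AXL and MERTK (together the TAM receptors). Scavenger receptors bind oxidised lipoproteins, lipids and other ligands, LRP1 takes up many ligands including apolipoprotein E, and CD33 is a receptor for sialic acid.

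Values are cpm, that is reads relative to a library size that the authors adjusted by TMM. A single read corresponded to between 0.0933 and 0.130 cpm, so the adjusted library sizes were 7708812 to 10723822, which are not the reads sequenced. In 3′ libraries each transcript end gives a read whatever its length, so levels are not divided by length. *Cnr1* itself was listed at 0 in all 3 libraries labelled *Cnr1*+/+ and at 13, 13 and 15 reads in those labelled *Cnr1*-/-. The paper states that microglia hardly express CB1, so it is the reads under the label *Cnr1*-/- that go against the labels. Directions below follow the labels of the libraries. Whether labels were exchanged or 3′ ends of the disrupted allele were read cannot be told apart here, and with exchanged labels every direction would turn. All libraries were rich in the 12 microglia markers, with sums from 15257 to 17794 cpm. The library labelled *Cnr1*-/- replicate 2 stood apart, with 4049 cpm of 10 neutrophil markers and 2342 cpm of 7 erythrocyte markers, where the other libraries had at most 523 and 237 cpm. At a nominal p under 0.05 (limma), 6 of 8 neutrophil markers tested (*S100a8*, *S100a9*, *Camp*, *Ltf*, *Retnlg* and *Lcn2*), all 4 erythrocyte markers tested (*Hba-a1*, *Hba-a2*, *Hbb-bs* and *Hbb-bt*) and the monocyte marker *Chil3* were higher under the label *Cnr1*-/-. The 6 monocyte markers had sums of 31.0 to 36.3 cpm and 32.2 to 109 cpm under the 2 labels. The 8 oligodendrocyte markers had sums of 596 to 854 cpm and 422 to 798 cpm. In bulk cells, fewer cells of a type and less RNA per cell cannot be told apart.

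The TAM receptors *Mertk* and *Axl* were the highest and the lowest of the 8 genes whose mean reached 10 cpm, and their promoters are shown here because the balance between them is the ratio examined below. Sequences are those of RefSeq (GRCm38.p6), written 5′ to 3′ on the strand of the gene from 250 bases before to 50 bases after the start that RefSeq gives, which differs from the GENCODE start in the gene coordinates given further on. Capitals mark the GC box GGGCGG, on either strand, to which Sp and KLF factors bind. The *Mertk* window is chr2:128698665-128698964 (plus strand) and the *Axl* window chr7:25788684-25788983 (minus strand).
Mertk: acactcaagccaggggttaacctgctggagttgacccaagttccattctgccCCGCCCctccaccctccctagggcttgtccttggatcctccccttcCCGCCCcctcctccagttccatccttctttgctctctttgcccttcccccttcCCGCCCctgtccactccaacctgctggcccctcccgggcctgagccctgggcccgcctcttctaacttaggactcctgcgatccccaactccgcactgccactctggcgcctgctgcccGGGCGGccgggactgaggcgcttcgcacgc
Axl: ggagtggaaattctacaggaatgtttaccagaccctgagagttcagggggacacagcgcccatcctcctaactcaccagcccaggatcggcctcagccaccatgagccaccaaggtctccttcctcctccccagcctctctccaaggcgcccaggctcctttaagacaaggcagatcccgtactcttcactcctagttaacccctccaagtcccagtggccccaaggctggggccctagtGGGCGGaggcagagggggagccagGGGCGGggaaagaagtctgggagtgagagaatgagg
The *Mertk* window held 4 GC boxes and had a GC content of 66.0%, and that of *Axl* held 2 and had 60.3%, where the median of all windows was 52.7%. The table had a window for 8 of the 10 genes (none for *Scarb1* and *Msr1*), and 7 of the 8 held a GC box, and 35.7% of all 32851 windows did. The GC content of the 8 windows ran from 43.0% (*Cd36*) to 67.7% (*Lrp1*), with that of *Cd33*, at 47.7%, the other one below the median of all windows, so these shares are not matched for GC content. An interferon response element and the direct repeat bound by LXR receptors, searched on both strands, were found in 0 of the 8 windows and in 3.44% and 0.0152% of all windows. The nuclear receptor half-site AGGTCA was found only in the window of *Cd36* among the 8, and in 16.3% of all windows. The ETS core GAGGAA was found in those of *Axl* and *Cd33*, and in 28.3% of all. The E-box CACGTG, the AP-1 motif TGANTCA and the TATA box TATAAA were in 0 of the 8 windows, against 7.15%, 7.81% and 13.6% of all. These matches describe letters in a window and were not tested as binding sites.

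Libraries were compared by label with limma on the log2 (cpm + 0.1) scale. A minimum mean of 10 cpm left 6659 genes, among them 8 of the 10, while *Cd36* and *Msr1* lay below it. None of the 8 had an adjusted p under 0.1, with values from 0.792 to 0.981 (limma, Benjamini-Hochberg over all genes tested), whereas 0.0901% of all genes tested had an adjusted p under 0.1 and a fold over 1.5. At a nominal p under 0.05, 2 of the 8 passed, *Scarb1* with a higher level in the libraries labelled *Cnr1*-/- and *Axl* with a lower one. Of all genes tested, 6.02% passed this threshold, 5.09% with a higher level and 0.931% with a lower one. With each library centred on the median of its genes, these shares were 2.96% and 2.67%, and the same 2 genes of the 8 passed. By limma voom, 2 of the 8 passed as well, with adjusted p-values of 0.79958 for both. The groups of 3 did not overlap for 2 of the 8 genes, *Scarb1* and *Lrp1*, both higher in the libraries labelled *Cnr1*-/-, and 0 were lower without overlap. Of all genes tested, 8.85% were higher and 2.13% lower without overlap. The median log2 fold change was 0.07 over the 8 genes and 0.08 over all genes tested. An exact permutation test of 3 libraries against 3 cannot give a two-sided p below 0.1.

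**Figure D1:**
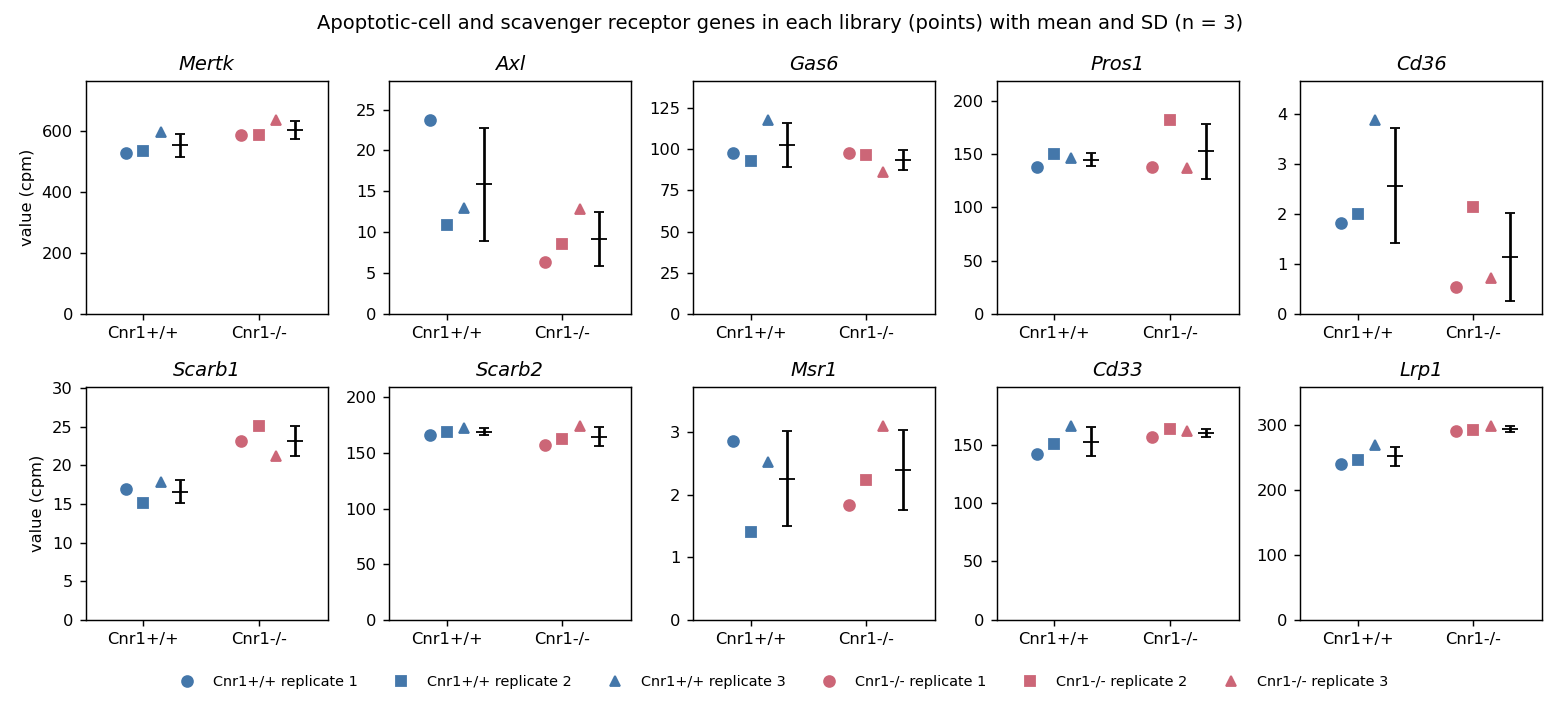
Level in cpm (vertical axes, linear from 0, scaled per gene) of the 10 genes in each library by genotype label, with symbols for the replicate numbers and black bars for the mean and SD of 3 libraries. *Scarb1* and *Lrp1* do not overlap between the labels, while the single value of 23.7 cpm in *Cnr1*+/+ replicate 1 sets *Axl* apart.

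*Mertk*, the TAM receptor on which microglia mainly rely to engulf apoptotic cells, was the most abundant gene of the set. It was listed at 526, 534 and 596 cpm in the libraries labelled *Cnr1*+/+ and at 585, 587 and 636 cpm in those labelled *Cnr1*-/-. Each of these values rests on at least 4057 reads, and only 64 listed genes had a higher mean. The highest *Cnr1*+/+ value lay above the lower pair of *Cnr1*-/- values, so the groups overlapped. The means were 552 ± 38.4 and 603 ± 28.7 cpm (SD, n = 3), which is a log2 fold change of 0.13 with a standard error of 0.114 (limma adjusted p = 0.910). Its 95% interval ran from −0.11 to 0.36 on the log2 scale, so a change of more than 1.28-fold upwards lay outside it. With other scalings between libraries the difference was smaller, at 0.05 with centring on the median, 0.03 with equal totals and 0.01 with quantile normalisation. *Mertk* (chromosome 2, 128698956 to 128802894 of mm10) overlaps the small nucleolar RNA gene *Gm23172* on its strand, which did not exceed 0.908 cpm, and the antisense gene *Gm14011*. Whether strand was used in counting is not given in the sources used here.

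*Axl*, a TAM receptor known to be induced in inflamed microglia and by interferon, had the largest difference of the 8 genes. It was listed at 23.7, 10.9 and 12.9 cpm in *Cnr1*+/+ replicates 1 to 3, which are 183, 109 and 123 reads. The corresponding values for *Cnr1*-/- were 6.28, 8.49 and 12.8 cpm, or 58, 91 and 107 reads. The groups overlapped, because *Cnr1*-/- replicate 3 lay above *Cnr1*+/+ replicate 2. The exact Poisson 95% interval of *Cnr1*+/+ replicate 1 (20.4 to 27.4 cpm) lay above those of the other 5 libraries, and these intervals cover counting error only. With means of 15.9 ± 6.91 and 9.17 ± 3.29 cpm (SD, n = 3), the log2 fold change was −0.76 (95% interval −1.39 to −0.13, limma adjusted p = 0.792). The two-sided exact permutation p of the difference was 0.2. Libraries of the same label differed in *Axl* by an SD of 0.55 on the log2 scale, more than for 97.8% of the genes tested, whereas counting alone gives about 0.145 at its depth. Without *Cnr1*+/+ replicate 1 the log2 fold change was −0.43, and without *Cnr1*-/- replicate 1 it was −0.52, both of which missed the nominal threshold. No annotated gene overlaps *Axl* (chromosome 7, 25757273 to 25788705).

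Border-associated macrophages of the meninges and perivascular spaces are also retained by CD11b beads. Their 9 markers added up to between 317 and 444 cpm in the libraries labelled *Cnr1*+/+ and to between 350 and 380 cpm in those labelled *Cnr1*-/-, and none was at 0 in any library. *Stab1* alone had 189 to 282 cpm, so these sums rest mainly on it. Of the 8 markers tested, 5 were lower and 3 higher under the label *Cnr1*-/-, and their median on the log2 scale was −0.27. *Pf4*, a chemokine these macrophages express, had 20.1 ± 3.51 and 14.3 ± 1.33 cpm (SD, n = 3) in the 2 groups and differed by −0.48 on the log2 scale (limma adjusted p = 0.809), which passed the nominal threshold but missed it without *Cnr1*+/+ replicate 1 or 3 or *Cnr1*-/- replicate 1 or 2. In *Cnr1*+/+ replicate 1, where *Axl* was highest, *Stab1*, the most abundant of these markers, had its lowest value (189 cpm), whereas *Cd163* and *Cbr2* had their highest (14.9 and 15.8 cpm), and these genes were singled out after their values were seen. The part of these cells in the difference between the labels was not tested.

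*Tyro3*, the other TAM receptor, which neurons express strongly, lay far below the minimum mean. It was listed at 1, 7 and 9 reads in the libraries labelled *Cnr1*+/+ and at 14, 13 and 24 reads in those labelled *Cnr1*-/-, and was singled out after its values were seen. The groups did not overlap, and in a fit without a filter on low values its limma adjusted p was 0.954. The sum of 9 neuron markers lay between 42.6 and 46.9 cpm, while single markers varied more, *Snap25* from 2.80 to 8.11 cpm and *Nefl* from 5.13 to 15.7 cpm. In *Cnr1*-/- replicate 3, where *Tyro3* was highest, *Snap25* had its highest value and *Nefl* its lowest, and the part of neuronal RNA in the values of *Tyro3* was not tested.

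The ligands *Gas6* and *Pros1* were both detected in the enriched cells. *Gas6*, which activates all TAM receptors, was listed at 97.6, 92.7 and 118 cpm in *Cnr1*+/+ and at 97.5, 96.6 and 86.5 cpm in *Cnr1*-/- libraries. *Pros1*, which encodes the anticoagulant protein S and activates MERTK and TYRO3, was listed at 138, 150 and 147 cpm and at 138, 183 and 137 cpm. Both ligands overlapped between the labels, and the highest *Pros1* value was that of *Cnr1*-/- replicate 2, the library with the most blood cell markers, whose part in it was not tested. The log2 fold change was −0.13 for *Gas6* (95% interval −0.41 to 0.15, limma adjusted p = 0.929), moving to −0.03 without *Cnr1*+/+ replicate 3 and to −0.23 with equal totals. That of *Pros1* was 0.06 (95% interval −0.21 to 0.33, limma adjusted p = 0.967) and turned to −0.07 without *Cnr1*-/- replicate 2. *Pros1* also lay just below 0 with other scalings between libraries. *Gas6* (chromosome 8, 13465374 to 13494490) overlaps *Tmem255b* on the opposite strand, and no annotated gene overlaps *Pros1* (chromosome 16, 62854307 to 62929346).

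Ratios between related genes within a library do not depend on how libraries were scaled to each other. *Axl* reached 4.51%, 2.04% and 2.17% of the *Mertk* value in *Cnr1*+/+ replicates 1 to 3, and 1.07%, 1.44% and 2.01% in *Cnr1*-/-. The groups did not overlap, but the nearest pair, 2.01% and 2.04%, rests on 107 and 109 reads of *Axl*. On the log2 scale the difference of the ratio, *Cnr1*-/- minus *Cnr1*+/+, was −0.89 (two-sided exact permutation p = 0.1, adjusted over the 3 ratios p = 0.15), and −0.52 without *Cnr1*+/+ replicate 1. *Gas6* lay at between 61.8% and 80.5% of *Pros1* in *Cnr1*+/+ libraries and at between 52.9% and 70.5% in *Cnr1*-/- libraries, with overlapping groups (log2 difference −0.19, two-sided exact permutation p = 0.4, adjusted p = 0.4). It was −0.08 without *Cnr1*-/- replicate 2.

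**Figure D2:**
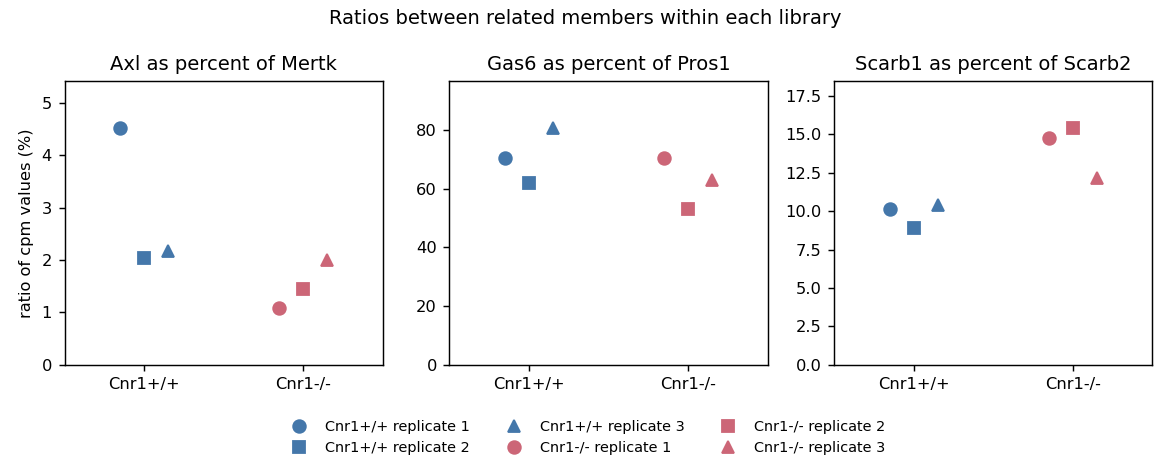
Ratio in percent (vertical axes, from 0) of *Axl* to *Mertk*, *Gas6* to *Pros1* and *Scarb1* to *Scarb2* in each library, with symbols for the replicate numbers and colours for the genotype labels. The first and last ratios do not overlap between the labels, and the ratio of the ligands does.

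Class B scavenger receptors are relatives with a large extracellular loop between membrane spans. *Scarb1* encodes SR-B1, which takes up cholesterol esters from high-density lipoprotein and binds phosphatidylserine. It was listed at 16.9, 15.1 and 17.9 cpm in the libraries labelled *Cnr1*+/+ and at 23.2, 25.1 and 21.2 cpm in those labelled *Cnr1*-/-, from 130 to 269 reads. All 3 *Cnr1*-/- values lay above all 3 of the other label (two-sided exact permutation p = 0.1, the smallest possible). The means were 16.6 ± 1.43 and 23.2 ± 1.93 cpm (SD, n = 3), and on the log2 scale the difference was 0.48 (standard error 0.203, 95% interval 0.06 to 0.89). It passed the nominal threshold, with a limma adjusted p of 0.792. Libraries of the same label differed by an SD of 0.12 on the log2 scale, close to the 0.109 that counting alone gives. The difference was 0.41 when *Cnr1*+/+ replicate 2 was left out, 0.48 when *Cnr1*-/- replicate 1 was left out and 0.42 when *Cnr1*-/- replicate 2 was left out, and each of these missed the nominal threshold. So did scaling to equal totals without mitochondrial genes, with 0.38. *Scarb1* (chromosome 5, 125277087 to 125341094) overlaps *Gm42633* on its strand, which did not exceed 2.21 cpm.

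*Scarb2* encodes LIMP-2, a lysosomal membrane protein that carries glucocerebrosidase to lysosomes. Its values of 166, 169 and 172 cpm in *Cnr1*+/+ and 157, 163 and 174 cpm in *Cnr1*-/- libraries spread least of the 8 genes, with a ratio of highest to lowest value of 1.11. The log2 fold change was −0.04 (95% interval −0.28 to 0.21, limma adjusted p = 0.981), that is from 0.822-fold to 1.15-fold. It was −0.14 with equal totals. Relative to *Scarb2* in the same library, *Scarb1* was at 10.2%, 8.92% and 10.4% in *Cnr1*+/+ and at 14.8%, 15.4% and 12.2% in *Cnr1*-/-. This ratio did not overlap between the labels (log2 difference 0.52, two-sided exact permutation p = 0.1, adjusted over the 3 ratios p = 0.15). *Scarb2* lies on chromosome 5 as well, from 92441314 to 92506833.

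*Cd36*, the class B receptor for oxidised low-density lipoprotein and long-chain fatty acids, was barely detected. It was listed at 14, 20 and 37 reads (1.82, 2.00 and 3.89 cpm) in *Cnr1*+/+ libraries. In those labelled *Cnr1*-/- it had 5, 23 and 6 reads (0.541, 2.14 and 0.716 cpm). The groups overlapped through *Cnr1*-/- replicate 2, while replicates 1 and 3 lay below every *Cnr1*+/+ value. Replicate 2 was also the library with the most blood cell markers, whose part in its *Cd36* value was not tested. Without a filter on low values, the log2 fold change was −1.26 with a 95% interval from −2.69 to 0.18 (limma adjusted p = 0.954), so these libraries do not resolve the direction. Endothelial cells also express *Cd36*, and the sum of 9 endothelial and mural markers lay between 27.1 and 30.5 cpm in *Cnr1*+/+ libraries and at 22.0, 27.8 and 16.6 cpm in *Cnr1*-/- libraries. It was thus lower in *Cnr1*-/- replicates 1 and 3 than in replicate 2, as was *Cd36*. Among the *Cnr1*+/+ libraries the sum was highest in replicate 1 (30.5 cpm), where *Cd36* was lowest (1.82 cpm). Of the 9 markers, 3 (*Flt1*, *Slco1a4* and *Pdgfrb*) were lower without overlap under the label *Cnr1*-/- and 6 overlapped, among them *Pecam1*, the most abundant, and *Cdh5* and *Ly6c1*, whose means were higher. *Itm2a*, *Pdgfrb* and *Rgs5* were at 0 in at least 1 library, and these markers were named after their values were seen. Their part in the values of *Cd36* was not tested. *Cd36* lies on chromosome 5 from 17781690 to 17888801.

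*Msr1*, the class A receptor SR-A for acetylated lipoproteins and many polyanions, was equally scarce. It had 22, 14 and 24 reads (2.85, 1.40 and 2.52 cpm) in *Cnr1*+/+ and 17, 24 and 26 reads (1.84, 2.24 and 3.10 cpm) in *Cnr1*-/- libraries. The groups overlapped, and without a filter the log2 fold change was 0.11 with a 95% interval from −1.07 to 1.28. This interval includes a 2-fold change of *Msr1* in either direction.

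*Lrp1* encodes a large endocytic receptor of the LDL receptor family. It was listed at 240, 246 and 269 cpm in *Cnr1*+/+ and at 291, 291 and 298 cpm in *Cnr1*-/- libraries, each from at least 1851 reads. Every *Cnr1*-/- value lay above every *Cnr1*+/+ value (two-sided exact permutation p = 0.1, the smallest possible). The means were 251 ± 15.1 and 293 ± 4.21 cpm (SD, n = 3), and on the log2 scale they differed by 0.22 (standard error 0.115, 95% interval −0.01 to 0.46). It missed the nominal threshold (limma adjusted p = 0.829) and passed it without *Cnr1*+/+ replicate 3, when the difference was 0.27. After centring of the libraries on their medians it was 0.15, and with equal totals 0.12. Astrocytes are a further source of *Lrp1*, and the sum of their 9 markers lay between 323 and 520 cpm in *Cnr1*+/+ and between 424 and 606 cpm in *Cnr1*-/- libraries. The 4 astrocyte markers tested had higher means under the label *Cnr1*-/- (median on the log2 scale 0.27). *Slc1a3* passed the nominal threshold at 0.32, while *Slc1a2*, *Aldoc* and *Clu* overlapped. Below the minimum mean, *Gfap* and *Sox9* had higher means under that label, and *Gja1*, *Aqp4* and *Aldh1l1* lower ones. In *Cnr1*+/+ replicate 3, where *Lrp1* was highest for that label, the astrocyte sum was lowest (323 cpm). The part of astrocyte RNA in the difference of *Lrp1* was not tested. An antisense gene, *Gm16217*, overlaps *Lrp1* (chromosome 10, 127538161 to 127621148).

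*Cd33*, the sialic acid receptor of the set, was listed at 142, 150 and 166 cpm in *Cnr1*+/+ and at 156, 163 and 162 cpm in *Cnr1*-/- libraries. The groups overlapped, and the 3 *Cnr1*-/- values lay within the range of the others. The log2 fold change was 0.07 (95% interval −0.18 to 0.32, limma adjusted p = 0.954) and lay just below 0 with other scalings. No annotated gene overlaps *Cd33* (chromosome 7, 43524216 to 43544428).

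**Figure D3:**
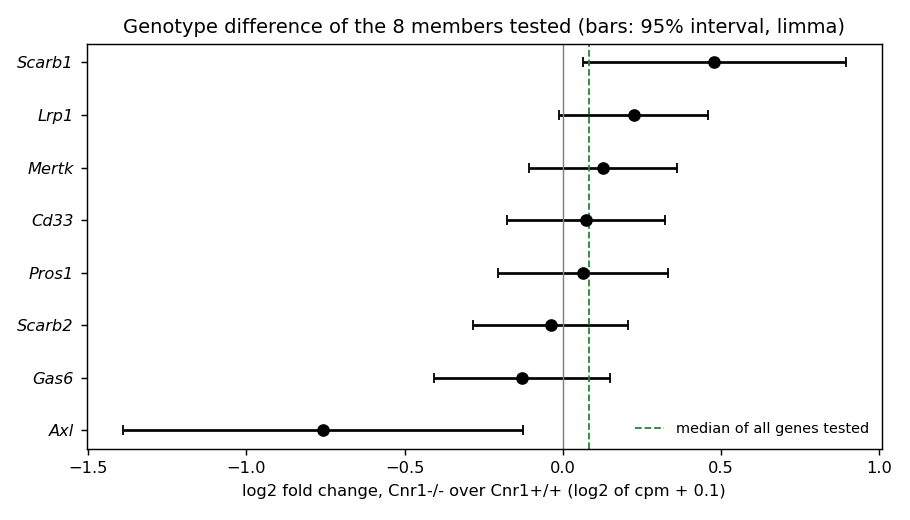
Log2 fold change (horizontal axis, *Cnr1*-/- over *Cnr1*+/+) of the 8 genes tested, with 95% intervals from limma, and the median of all genes tested, 0.08, as a dashed line. The intervals of *Axl* and *Scarb1* leave out 0, and the other 6 include it.

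By level, the 10 genes formed tiers that held in every library. *Mertk* lay above *Lrp1*, and *Lrp1* above the group of *Scarb2*, *Cd33* and *Pros1*, which lay between 137 and 183 cpm with overlapping ranges. *Gas6* followed at 86.5 to 118 cpm. *Scarb1* and *Axl* lay between 6.28 and 25.1 cpm with overlapping ranges, and *Msr1* and *Cd36* shared the lowest tier, at or below 3.89 cpm. No library was highest throughout: *Cnr1*-/- replicate 3 held the highest value for 4 of the 10 genes and the lowest for 2. The genes lie on 6 chromosomes, 3 of them on chromosome 5, and none on chromosome 4, which holds *Cnr1*.

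The wider machinery of engulfment was examined with 7 lists of 107 further genes, of which 61 were tested. None had an adjusted p under 0.1. At a nominal p under 0.05 there were 4, all higher in the libraries labelled *Cnr1*-/-, or 6.56% of the 61 against 6.02% of all genes tested. Of the 61, 48 were higher and 13 lower, or 78.7% higher, where 68.4% of all genes tested were higher. After centring, 39 were higher and 22 lower, or 63.9% higher against 52.0% of all genes tested, and 5 passed the nominal threshold, the same 4 genes as higher and *Adam17* as lower.

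Of the other receptors and bridging proteins for apoptotic cells, 8 of 20 were tested and 0 passed the nominal threshold in either direction. The most abundant were *Trem2*, a lipid receptor of microglia, *Itgb5*, a subunit of the integrin that binds the bridging protein MFG-E8, and *Stab1*, a phosphatidylserine receptor. *Trem2* had 357 ± 59.7 and 396 ± 6.08 cpm (SD, n = 3), *Itgb5* 286 ± 47.0 and 312 ± 27.8 cpm, and *Stab1* 234 ± 46.6 and 248 ± 23.6 cpm in *Cnr1*+/+ and *Cnr1*-/- libraries. For all 3 the groups overlapped.

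Among other scavenger receptors, 1 of 6 genes tested passed the nominal threshold. *Cd14*, the co-receptor for lipopolysaccharide that also binds apoptotic cells, was listed at 92.9, 102 and 103 cpm in *Cnr1*+/+ and at 126, 156 and 129 cpm in *Cnr1*-/- libraries, with no overlap. The labels differed by 0.45 on the log2 scale (standard error 0.130, limma adjusted p = 0.478). *Cd68*, a lysosomal glycoprotein of macrophages, had 200 ± 16.8 and 205 ± 14.7 cpm, and *Mrc1*, the mannose receptor, 41.5 ± 9.48 and 34.9 ± 5.85 cpm (SD, n = 3).

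In the LDL receptor family and its partners, 1 of 8 genes tested passed. *Sorl1*, a sorting receptor that binds amyloid precursor protein, was listed at between 27.8 and 31.8 cpm in *Cnr1*+/+ and at 37.2, 45.3 and 40.8 cpm in *Cnr1*-/- libraries, also without overlap. On the log2 scale the difference was 0.46 (standard error 0.166, limma adjusted p = 0.702), and the nominal threshold was missed without *Cnr1*-/- replicate 2. *Calr*, *Apoe* and *Hspa5*, the most abundant of this list, overlapped between the labels, with log2 fold changes of 0.11, −0.12 and −0.07.

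Among inhibitory receptors and sialic acid lectins, 0 of 7 genes tested passed. *Sirpa*, which receives the signal of CD47 against engulfment, had 1007 ± 136 and 962 ± 20.3 cpm, and *Siglech*, a microglial lectin, 1078 ± 109 and 1196.5 ± 52.8 cpm (SD, n = 3). *Ptpn6*, the phosphatase SHP-1 that such receptors recruit, had 84.2 ± 3.48 and 89.0 ± 6.81 cpm.

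Of the engulfment machinery, 1 of 15 genes tested passed. *Elmo1*, which with a DOCK protein activates the GTPase RAC1, was listed at 84.8, 101 and 83.7 cpm in *Cnr1*+/+ and at 118, 112 and 109 cpm in *Cnr1*-/- libraries, again without overlap. The labels differed by 0.34 on the log2 scale (standard error 0.131, limma adjusted p = 0.792), and the nominal threshold was missed without *Cnr1*-/- replicate 1, with libraries scaled to equal totals and with eBayes without a trend. The abundant *Lyn*, *Cdc42* and *Rac1* had log2 fold changes of −0.00073, 0.15 and 0.10 and overlapped.

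Genes for shedding and feedback of TAM receptors passed in 0 of 7 cases. *Adam17*, the protease that sheds MERTK, had 101 ± 10.7 and 90.9 ± 4.08 cpm, and *Adam10*, which can shed AXL, 91.4 ± 7.90 and 101 ± 12.7 cpm (SD, n = 3). *Ifnar2*, the interferon receptor chain, was higher in each *Cnr1*-/- library, with 122 ± 8.97 and 138 ± 2.61 cpm, but missed the nominal threshold (limma adjusted p = 0.900).

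Uptake of dead cells loads phagocytes with cholesterol, which LXR receptors and ABC transporters handle. In this list of nuclear receptors and lipid export genes, 1 of 10 tested passed. *Abcg1*, which exports cholesterol to high-density lipoprotein, was listed at 35.0, 39.2 and 49.0 cpm in *Cnr1*+/+ and at 70.0, 55.4 and 56.0 cpm in *Cnr1*-/- libraries. These values did not overlap, and their difference on the log2 scale was 0.56 (standard error 0.162, limma adjusted p = 0.478). *Abca1*, a cholesterol exporter induced by the same receptors, had 121 ± 11.3 and 112 ± 11.9 cpm (SD, n = 3), with a log2 fold change of −0.10. *Npc2* and *Npc1*, which move cholesterol out of lysosomes, had log2 fold changes of 0.11 and 0.13.

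**Figure D4:**
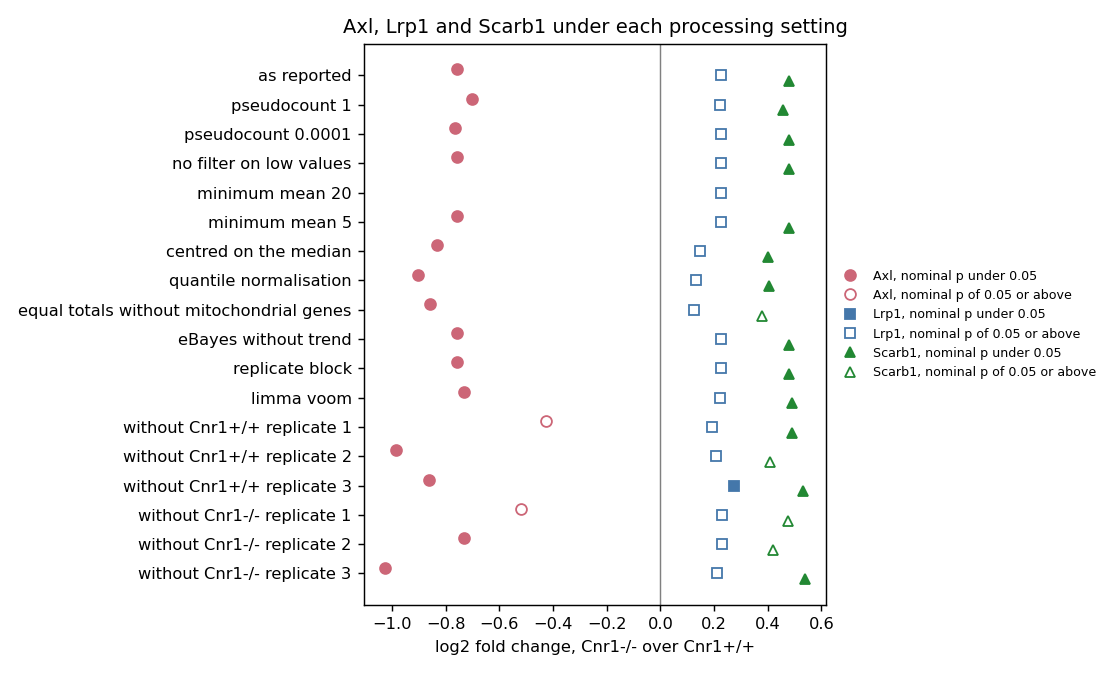
Log2 fold change (horizontal axis, *Cnr1*-/- over *Cnr1*+/+) of *Axl*, *Lrp1* and *Scarb1* under each processing setting (vertical axis), with filled symbols for a limma nominal p under 0.05. No symbol crosses 0. *Axl* comes nearest to 0 at −0.43, *Scarb1* at 0.38 and *Lrp1* at 0.12.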

How the data were processed

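CD11b+ brain cells of 6 mice, 3 per genotype, gave 1 library each, with genotypes taken from the sample labels and 0 value columns left unmapped. According to the methods, the authors aligned trimmed QuantSeq reads to mm10 with STAR, quantified them per gene with expectation-maximisation in Partek Flow and applied TMM. The deposited values are CPM on that scale, and depth was derived from the value of 1 read. Between 83.4% and 85.5% of values above 0 were whole reads (within 0.02), so count tests were not used. Counting intervals (exact Poisson, 95%) cover counting error only.

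limma 3.58.1 (R 4.3.3) with a mean-variance trend was fitted to log2 (CPM + 0.1) of genes whose mean reached 10. Genotype was its single term, and p-values were adjusted over all genes tested by the Benjamini-Hochberg method. The steps were tested on simulated data. Ratios were compared with two-sided exact permutation tests (scipy 1.17.1). Ends of genes are those of GENCODE vM21 on the same build. All 10 genes were to be named, as were genes of the other lists with a nominal p under 0.05 and the 3 most abundant of each pathway list. A gene that this rule names is not reported here. The set, the lists and the tests were chosen with earlier results of these data known.

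Alternatives were pseudocounts of 1 and 0.0001, no filter, minimum means of 5 and 20, centring on the median, quantile normalisation, equal totals without mitochondrial genes, eBayes without trend, the replicate number as a block, limma voom, and each library left out in turn.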

Additional observations from a re-analysis of the deposited data

How the results depend on the processing

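Over 17 alternatives none of the 8 genes reached an adjusted p under 0.1 (lowest 0.470, limma). Of 134 pairs of a gene and an alternative, 120 kept direction and side of the nominal threshold, 6 lost it, 1 passed it (*Lrp1* without *Cnr1*+/+ replicate 3, 0.27) and 7 turned direction. The latter were *Pros1* at −0.012, −0.028 and −0.036 and *Cd33* at −0.0029, −0.0074 and −0.027 with centring, quantile normalisation and equal totals, and *Pros1* at −0.072 without *Cnr1*-/- replicate 2 (−0.072 to 0.13 over the libraries left out). These scalings lowered the median of all genes by up to 0.0998. *Axl* lost the threshold without *Cnr1*+/+ replicate 1 or *Cnr1*-/- replicate 1, and *Scarb1* with equal totals (0.38) and without *Cnr1*+/+ replicate 2, *Cnr1*-/- replicate 1 or *Cnr1*-/- replicate 2.

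The number of the 8 genes with a nominal p under 0.05, 2 as reported, was 0 with a minimum mean of 20, where *Axl* and *Scarb1* were no longer tested, 1 with equal totals, and 0 to 3 with a library left out (0 without *Cnr1*-/- replicate 1). The number without overlap, 2 as reported, was 1 with a minimum mean of 20, 3 with equal totals and 2 to 4 with a library left out. With 3 libraries against 2, groups separate more easily by design, so the last counts are not comparable with the reported one. The share over all genes was not computed for these alternatives. Over all genes, 401 had a nominal p under 0.05, against 993 unfiltered, 263 at a minimum mean of 20 and 251 (without *Cnr1*-/- replicate 2) to 600 with a library left out. Those with an adjusted p under 0.1 and a fold over 1.5 numbered 6, against 14 unfiltered, 0 with centring, quantile normalisation, equal totals or eBayes without trend (limma; 375, 360, 354 and 391 genes had a nominal p under 0.05), and 1 to 24 with a library left out (1 without *Cnr1*+/+ replicate 2, 24 without *Cnr1*-/- replicate 3).

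The replicate numbers did not pair the libraries, since same-numbered libraries had correlations of deviations between −0.056 and −0.031. With the replicate block, the log2 fold changes of the 8 genes were those of the fit without it, 2 genes passed the nominal threshold and 421 of all genes did. The ratios kept their direction under all 8 alternatives, with *Axl* to *Mertk* between −1.11 and −0.52 (the latter without *Cnr1*+/+ replicate 1) and *Scarb1* to *Scarb2* between 0.45 and 0.62. Depth is lowest for *Cd36* and *Msr1*, at 5 to 37 reads per library.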
